A study of Mus musculus with 15 samples.

Results

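The genes described here are those of the mouse major histocompatibility complex (MHC) and of antigen presentation. They are the symbols of the 3 deposited tables that start with H2-, together with B2m, Cd74, Ciita, Tap1, Tap2, Tapbp, Psmb8, Psmb9 and Psmb10, which gives 53 members among 23393 symbols. Polyadenylated RNA from kidneys of C57BL/6 mice was sequenced in 15 libraries to find the kidney genes that depend on ERRγ, the orphan nuclear receptor encoded by Esrrg. All mice carried floxed Esrrg alleles (ERRg fl/fl): control mice had no Cre, and mice labelled knockout also carried Sim1-Cre. The labels give 2 control and 3 knockout males at 3 weeks of age, 2 control and 2 knockout females at 3 weeks, and 3 control and 3 knockout males at 3 months. The sources used here do not name the kidney cells in which Sim1-Cre was active.

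MHC class I molecules sit on nearly all nucleated cells and show peptides made by the proteasome to CD8 T cells. They consist of a heavy chain and beta-2 microglobulin, and the TAP transporter, tapasin and the immunoproteasome supply their peptides. Class II molecules are mainly made by dendritic cells, macrophages and B cells, where the invariant chain Cd74 and the DM and DO molecules guide peptide loading and the coactivator CIITA switches the genes on. In kidney, resident macrophages and dendritic cells are a known source of class II, and injured tubule cells can also make MHC molecules.

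The authors deposited 1 table per comparison of the genotypes, and no values per library were used here. Each table gives a mean normalized count over its libraries, a log2 ratio of the genotypes (the log2 fold change) and its standard error (SE), a Wald p-value of DESeq2 and its Benjamini-Hochberg adjusted form. A gene is named tested where its status is OK, and called where its adjusted p was under 0.05. The status Low goes with means under about 10, and Outlier marks genes with a fold change but no p-value. All fold changes, means, p-values and statuses below are those of the authors' deposited tables. "Higher" means higher in the libraries labelled knockout.

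Several properties of the tables bear on every value. The recurring steps of the lowest means imply 4, 4 and 5 libraries in 3-week males, 3-week females and 3-month males, against 5, 4 and 6 in the labels. The headers do not name the direction of the ratio; it was read as knockout over control because the called kidney tubule and podocyte markers were all negative: 8 of 9 tested, 4 of 7 and 3 of 3. Most markers had no p-value at 3 months, 7 of 10 being Outlier, and Aqp2 of that list went the other way, at 0.92, 0.46 and 2.29 with the status Outlier in each of the authors' deposited tables. The deposited log2 fold change of Esrrg itself was 0.82 and 1.04 at 3 weeks and -0.87, with the status Outlier, at 3 months, so the gene-level count of Esrrg goes against the labels at 3 weeks. Were the ratio turned, every "higher" below would read "lower". The source names of the 3-month knockout libraries say female, but titles and sex tags say male, and the authors' deposited table lists Xist there at a mean of 11.9, against 23848 in females. The summed means were 47.6, 33.9 and 18.8 in units of 1e6 normalized counts. Scaling by the totals instead of the authors' size factors would raise every log2 fold change by 0.18, 0.15 and 0.49 in that order. The median over all tested genes was -0.01, 0.01 and 0.01.

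Of the 53 members, 31 were tested in at least 1 table and 24 in all 3. Another 13 were listed at 0 in every table, among them H2-Q6, H2-Q7, H2-Q8 and H2-Q9, which are near-identical copies of each other, and H2-Ea-ps. The remaining 9 had some reads but the status Low throughout. H2-Ea-ps is the E alpha gene, which the b haplotype of C57BL/6 mice is known not to transcribe. Reads of the H2-Q, H2-T and H2-M genes may be lost or shared between copies, so values of single genes of these families are uncertain. On GRCm38, 45 of the members lie on chromosome 17, while B2m is on chromosome 2, Ciita on chromosome 16 and Cd74 on chromosome 18.

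Expressed per kilobase of exon, the means over both genotypes had the same leading order in the 3 tables. B2m was the most abundant member, with 17639, 13804 and 9770 normalized counts per kilobase in 3-week males, 3-week females and 3-month males. Cd74 followed with 5060, 3087 and 5059, and the class I heavy chain H2-K1 with 3959, 2730 and 3009. H2-Eb1 stood at rank 8 at 3 weeks in both sexes and at rank 4 at 3 months, when H2-Ab1, H2-Aa and H2-D1 came next with 1453, 1383 and 1353. Without values per library, the spread around these levels is unknown and neighbouring ranks cannot be told apart.

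At 3 months in males, all 10 tested genes of the class II chains and class II loading, all 5 tested genes of peptide supply, B2m and 4 of 7 tested non-classical class I genes were called higher in the libraries labelled knockout. After subtracting the median fold change of genes of like abundance, H2-Ob, H2-Q10, H2-Q2 and H2-T10 were no longer called at 3 months. At 3 weeks few members were called. Among tested members at 3 months, 20 of 25 were called higher and 1 lower, where the calls over all tested genes were 29.8% higher and 27.8% lower, 57.5% together. In 3-week males, 6 of 30 were called higher and 1 lower, against 8.81% and 8.52% of all tested genes, 17.3% in all. In 3-week females, 3 of 31 were called higher and 3 lower, against 8.29% and 10.4%, 18.7% in all; scaling by totals turned this split into 5 higher and 1 lower. The members' median log2 fold change was 0.20, -0.02 and 1.73 in 3-week males, 3-week females and 3-month males. In whole-kidney RNA, fewer cells of a type and less RNA per cell cannot be told apart, and the same holds for more cells and more RNA.

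**Figure D1:**
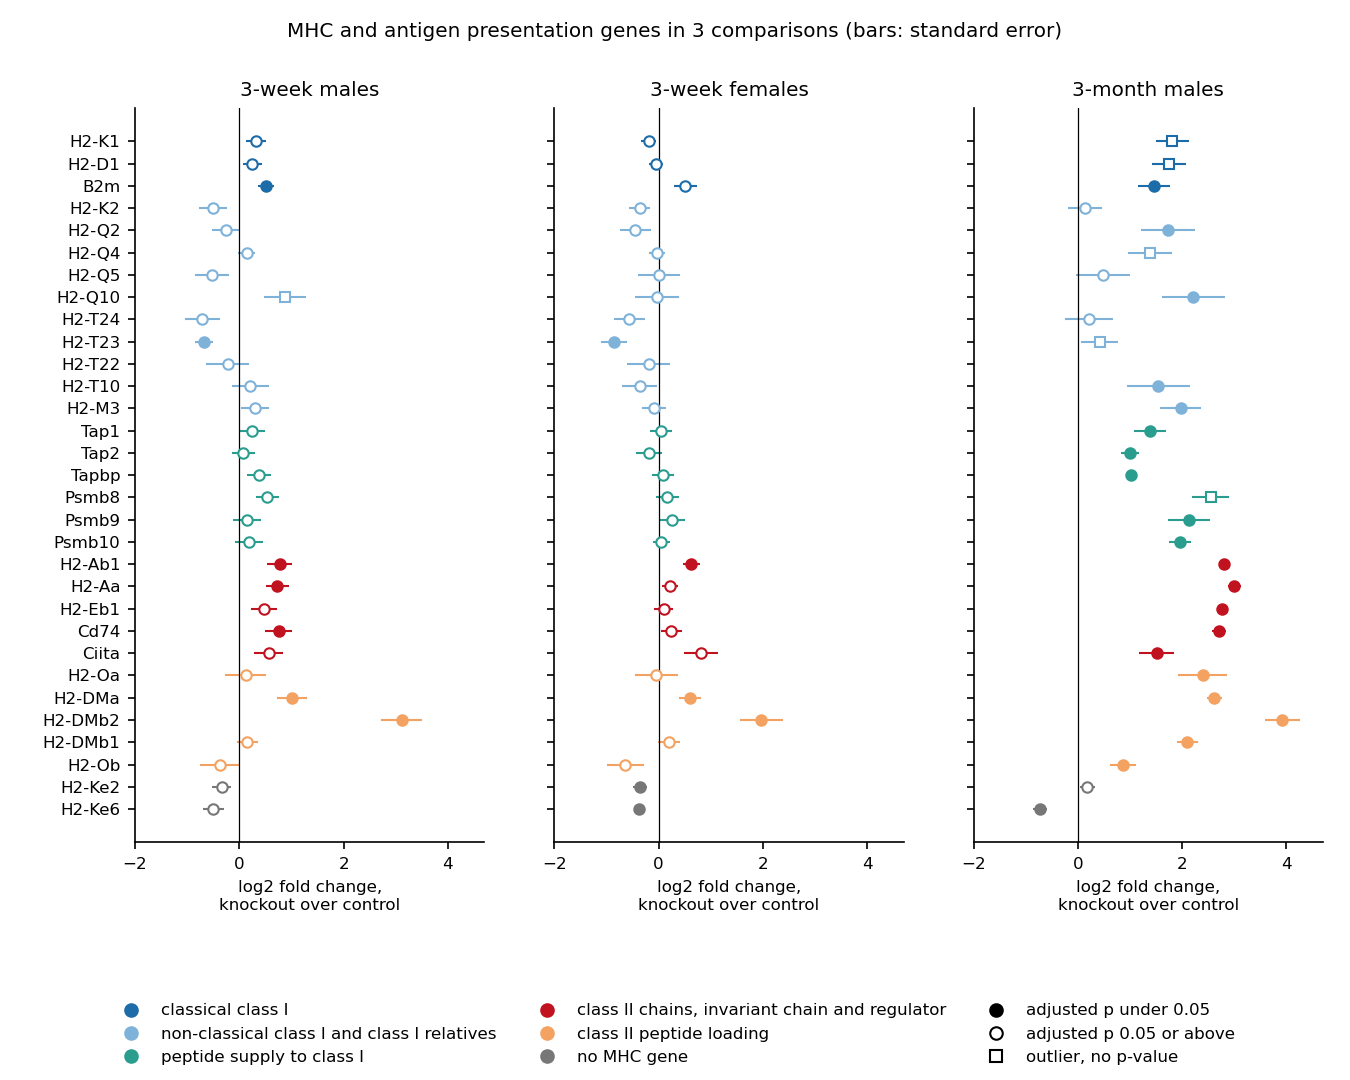
Deposited log2 fold change (knockout over control, horizontal axis) and its SE (bars) for each member with the status OK or Outlier, in the 3 tables, coloured by role; filled points are called genes, open circles genes not called and squares the status Outlier. At 3 months the class II points lie to the right of those at 3 weeks, and H2-DMb2 lies far to the right in all 3.

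The class II chains changed most at 3 months. H2-Aa encodes the alpha chain of the I-A molecule, and its log2 fold change in the authors' deposited table of 3-month males was 3.00 ± 0.13 (SE; adjusted p = 1.22e-116), an 8.00-fold difference. Taking 2 knockout and 3 control libraries from the steps, this implies 1382 normalized counts in control and 11058 in knockout. Its partner H2-Ab1, the I-A beta chain, stood at 2.81 ± 0.09 (adjusted p = 1.97e-195) in the authors' deposited table, with implied levels of 1098 and 7680. Both chains of I-A thus rose by similar factors. H2-Eb1, the beta chain of I-E, was at 2.77 ± 0.06 in the authors' deposited table, with its adjusted p listed as 0 and implied levels of 1281 and 8717. Cd74, the invariant chain that blocks the groove until the endosome, was at 2.71 ± 0.14 (adjusted p = 2.98e-86) in the authors' deposited table, from an implied 2639 to 17278. The values of these 4 genes lay close together.

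At 3 weeks the same chains differed less. In the authors' deposited table of 3-week males, H2-Ab1 (0.77 ± 0.24, adjusted p = 0.0131), Cd74 (0.75 ± 0.26, adjusted p = 0.0239) and H2-Aa (0.73 ± 0.22, adjusted p = 0.00894) were called higher. H2-Eb1 was at 0.48 ± 0.25 (adjusted p = 0.198) in the authors' deposited table, and at 0.66 (adjusted p = 0.0471) with scaling by totals. In the authors' deposited table of 3-week females, only H2-Ab1 of the chains was called (0.63 ± 0.16, adjusted p = 0.00169). H2-Aa, Cd74 and H2-Eb1 were at 0.22 ± 0.15 (adjusted p = 0.325), 0.25 ± 0.19 (adjusted p = 0.413) and 0.10 ± 0.18 (adjusted p = 0.768) in the authors' deposited table of females.

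Ciita encodes the class II transactivator. Its mean was 126, 80.6 and 145 normalized counts in the authors' deposited tables of 3-week males, 3-week females and 3-month males. It was called at 3 months only, with 1.51 ± 0.34 (adjusted p = 2.91e-05) in the authors' deposited table. At 3 weeks the authors' deposited tables gave 0.56 ± 0.28 (adjusted p = 0.169) in males and 0.81 ± 0.32 (adjusted p = 0.0565) in females. With scaling by totals both would be called, at 0.74 (adjusted p = 0.0450) and 0.96 (adjusted p = 0.0166). Ciita overlaps Dexi in the annotation, and the sources used here do not say whether counting used strand.

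The members of class II peptide loading fell into separate patterns at 3 weeks. H2-DM, made of H2-DMa and H2-DMb chains, removes the Cd74 fragment from class II, and H2-DO, made of H2-Oa and H2-Ob, restrains H2-DM. H2-DMb2 had the largest fold change of the tested members in each of the authors' deposited tables: 3.11 ± 0.39 in 3-week males (adjusted p = 2.7e-13), 1.97 ± 0.41 in 3-week females (adjusted p = 4.1e-05) and 3.92 ± 0.34 in 3-month males (adjusted p = 1.32e-29). Its means in the authors' deposited tables were low, at 57.7, 52.4 and 66.5 normalized counts. The implied levels were 12.0 in control and 103 in knockout for 3-week males, 21.4 and 83.4 for 3-week females, and 9.97 and 151 for 3-month males.

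The neighbouring copy H2-DMb1 had a mean of 670 normalized counts in the authors' deposited table of 3-week males. The authors' deposited tables put it at 0.15 ± 0.20 for 3-week males (adjusted p = 0.712), 0.21 ± 0.21 for 3-week females (adjusted p = 0.557) and 2.10 ± 0.20 for 3-month males (adjusted p = 5.82e-24). Reads may be lost or shared between the copies H2-DMb1 and H2-DMb2 too, which was not tested, so their separate values are uncertain. H2-DMa was called higher in all 3 of the authors' deposited tables, at 1.01 ± 0.28 (adjusted p = 0.00371), 0.60 ± 0.20 (adjusted p = 0.0218) and 2.62 ± 0.15 (adjusted p = 5.68e-69). The call in females was lost after subtracting the median of like-abundance genes, at 0.52 (adjusted p = 0.0555). H2-DMa overlaps Brd2 in the annotation. H2-Oa and H2-Ob were called at 3 months only, at 2.39 ± 0.46 (adjusted p = 1.18e-06) and 0.86 ± 0.25 (adjusted p = 0.00164) in the authors' deposited table. Subtracting the median of like-abundance genes turned H2-Ob to -0.07 (adjusted p = 0.837). H2-Ab1, H2-DMa and H2-DMb2 were the 3 members called higher in every table, and no member was called lower in every table.

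The promoters of 4 of these genes are shown because their proximal element, the Y box, is the part of the class II promoter that NF-Y is known to bind, and because H2-DMb1 and H2-DMb2 are copies with different values at 3 weeks. The windows are RefSeq sequence on GRCm38.p6, from 250 bases before to 50 after an annotated start, each printed 5′ to 3′ on the strand of its gene. They lie at chr17:34287774-34288073 on the minus strand for H2-Aa and, on the plus strand, at chr17:34305617-34305916 for H2-Eb1, chr17:34152941-34153240 for H2-DMb1 and chr17:34144999-34145298 for H2-DMb2. Capitals mark CCAAT (the Y box core, ATTGG on the other strand) and TGACG (the core of the X2 box, CGTCA on the other strand).
H2-Aa: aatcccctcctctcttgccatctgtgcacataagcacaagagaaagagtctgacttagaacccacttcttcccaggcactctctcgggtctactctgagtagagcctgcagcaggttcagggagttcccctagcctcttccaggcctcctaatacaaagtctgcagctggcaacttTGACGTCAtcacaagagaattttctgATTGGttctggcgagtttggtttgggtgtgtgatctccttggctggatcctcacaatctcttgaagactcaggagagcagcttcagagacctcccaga
H2-Eb1: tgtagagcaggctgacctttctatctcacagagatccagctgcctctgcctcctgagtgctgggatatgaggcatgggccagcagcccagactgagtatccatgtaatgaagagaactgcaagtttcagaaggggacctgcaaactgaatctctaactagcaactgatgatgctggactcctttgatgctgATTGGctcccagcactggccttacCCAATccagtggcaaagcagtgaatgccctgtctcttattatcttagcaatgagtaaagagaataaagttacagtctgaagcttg
H2-DMb1: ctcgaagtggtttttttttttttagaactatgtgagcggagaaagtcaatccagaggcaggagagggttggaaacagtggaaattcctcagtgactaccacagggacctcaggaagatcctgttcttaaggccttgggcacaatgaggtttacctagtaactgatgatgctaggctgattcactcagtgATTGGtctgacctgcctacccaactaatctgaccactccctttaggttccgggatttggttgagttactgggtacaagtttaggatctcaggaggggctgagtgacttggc
H2-DMb2: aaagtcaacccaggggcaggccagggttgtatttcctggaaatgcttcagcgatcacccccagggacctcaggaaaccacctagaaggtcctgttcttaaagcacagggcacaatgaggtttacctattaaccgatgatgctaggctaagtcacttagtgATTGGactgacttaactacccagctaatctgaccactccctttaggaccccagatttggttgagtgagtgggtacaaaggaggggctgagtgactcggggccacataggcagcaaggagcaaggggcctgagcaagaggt

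The Y box core began at position -48 relative to the annotated start in H2-Aa, at -59 and -35 in H2-Eb1, at -61 in H2-DMb1 and at -90 in H2-DMb2. Aligned locally, the windows of H2-DMb1 and H2-DMb2 were identical at 209 of 270 columns (77.4%), with the Y box core present in both; those of H2-Aa and H2-Eb1 were identical at 55.4% of columns. CCAAT was held by 3 of 3 windows of class II chains and 5 of 6 windows of the 5 class II loading genes. It was not particular to class II, being held by 18 of 21 windows of non-classical class I genes and 34 of 42 of all members. Of all 32851 RefSeq promoter windows, 37.4% held it. TGACG was held by 1 of 3 windows of class II chains and 0 of 6 of class II loading genes. Of all member windows 18 of 42 held TGACG, and of all RefSeq windows 20.8%. A match describes letters only, and binding was not measured. H2-Ab1, Cd74, Ciita and Tap2 had no window in the table used, which covered 38 of the 53 members with 42 windows.

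For classical class I, the gene with an adjusted p at 3 months was B2m, the light chain shared by all class I molecules. It was called higher in the authors' deposited tables of 3-week males (0.52 ± 0.16, adjusted p = 0.00881) and 3-month males (1.47 ± 0.31, adjusted p = 6.92e-06). In 3-week females it was at 0.51 ± 0.21 (adjusted p = 0.0782) in the authors' deposited table, and would be called with scaling by totals (0.66, adjusted p = 0.0136). The implied 3-month levels were 4927 normalized counts in control and 13615 in knockout. B2m overlaps Patl2 in the annotation.

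The heavy chains H2-K1 and H2-D1 had fold changes but no p-value or adjusted p at 3 months, since both carry the status Outlier. The authors' deposited table of 3-month males lists H2-K1 at 1.81 ± 0.31 and H2-D1 at 1.75 ± 0.33. At 3 weeks H2-K1 was at 0.32 ± 0.19 (adjusted p = 0.291) in males and -0.19 ± 0.14 (adjusted p = 0.369) in females in the authors' deposited tables. H2-D1 was at 0.25 ± 0.19 (adjusted p = 0.429) and -0.05 ± 0.13 (adjusted p = 0.840) in the same tables. Neither heavy chain was called at 3 weeks, and their 3-month values lay close to each other and to that of B2m.

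The B2m promoter is shown for comparison with the class II windows, since the light chain is known to be induced through an interferon-stimulated response element as well as through the elements it shares with class II genes. It lies at chr2:122147437-122147736 on the plus strand. Capitals mark CCAAT and TGACG as above and the core searched for the interferon element, GAAA followed after any 2 bases by GAAA.
B2m: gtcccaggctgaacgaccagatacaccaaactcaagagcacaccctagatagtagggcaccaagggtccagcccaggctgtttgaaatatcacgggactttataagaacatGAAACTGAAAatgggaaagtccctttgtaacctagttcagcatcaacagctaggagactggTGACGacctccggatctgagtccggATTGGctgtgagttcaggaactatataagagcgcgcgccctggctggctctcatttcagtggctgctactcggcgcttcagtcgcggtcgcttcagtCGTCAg

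In this window the interferon core began at position -139, TGACG at -78 and CCAAT at -53, and TGACG occurred again on the other strand at 44. All 4 windows of classical class I genes held both CCAAT and TGACG. They belong to B2m, H2-D1 and H2-K1, the last with 2 overlapping windows, and H2-L had none. The interferon core was found in 1 of these 4, in 3 of 42 windows of all members and in 3.44% of all RefSeq windows. The core of the interferon-gamma activated site, TTCNNNGAA, was in 4 of 42 member windows and 8.30% of all. AAGGTCA, the core site known to be bound by ERR receptors, was in 2 of 42 windows, those of H2-Eb1 and Psmb10, and in 4.72% of all.

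Genes of peptide supply to class I were called at 3 months only. TAP, built from Tap1 and Tap2, pumps peptides into the endoplasmic reticulum, and Tapbp encodes tapasin, which ties it to class I. The authors' deposited table of 3-month males gave 1.38 ± 0.31 (adjusted p = 3.33e-05) for Tap1, 1.01 ± 0.17 (adjusted p = 2.33e-08) for Tap2 and 1.01 ± 0.09 (adjusted p = 2.16e-25) for Tapbp. The immunoproteasome subunits Psmb9 and Psmb10 were at 2.13 ± 0.41 (adjusted p = 9.67e-07) and 1.95 ± 0.21 (adjusted p = 3.52e-19) in the authors' deposited table. Psmb8, the remaining immunoproteasome subunit, was at 2.54 ± 0.35 with the status Outlier in the authors' deposited table. All 5 tested genes of this role were called higher, and none of the 6 tested at 3 weeks was called in either sex.

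At 3 weeks the values of these 6 genes in the authors' deposited tables ran from 0.08 (Tap2) to 0.54 (Psmb8, adjusted p = 0.0817) in males and from -0.18 (Tap2) to 0.25 (Psmb9) in females. Psmb8 in 3-week males would be called with scaling by totals (0.72, adjusted p = 0.0111). The annotation has Psmb9 overlapping Tap1, and Tapbp overlapping Zbtb22. Of the standard proteasome subunits that the immunoproteasome subunits replace, 2 of 3 were called lower at 3 months: the authors' deposited table gave -0.38 ± 0.15 (adjusted p = 0.0225) for Psmb5, -0.08 ± 0.18 (adjusted p = 0.706) for Psmb6 and -0.43 ± 0.11 (adjusted p = 4.96e-04) for Psmb7. Scaling by totals, which adds 0.49, would turn all 3 positive, and the difference from the immunoproteasome subunits was not tested. The activator subunits Psme1 and Psme2 were both called higher, each at 0.97 with SE 0.16 and 0.14 in the authors' deposited table.

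Non-classical class I genes went different ways. H2-T23 encodes Qa-1, the ligand of NKG2 receptors, and was called lower at 3 weeks in both sexes: -0.68 ± 0.17 (adjusted p = 9.97e-04) in males and -0.85 ± 0.25 (adjusted p = 0.00633) in females in the authors' deposited tables. At 3 months the authors' deposited table lists it at 0.42 ± 0.36 with the status Outlier. H2-T23 overlaps A930015D03Rik in the annotation, as do H2-T22 and H2-T24. H2-T24 was at -0.71 ± 0.34 (adjusted p = 0.147) and -0.56 ± 0.31 (adjusted p = 0.205) at 3 weeks in the authors' deposited tables and was not called. H2-T23 was the sole class I gene called lower in any table.

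H2-M3, which presents formylated bacterial and mitochondrial peptides, was called higher at 3 months (1.97 ± 0.39, adjusted p = 2.35e-06) in the authors' deposited table. H2-Q10, a secreted class I molecule known from liver, was at 2.21 ± 0.60 (adjusted p = 6.87e-04), H2-Q2 at 1.73 ± 0.52 (adjusted p = 0.00196) and H2-T10 at 1.54 ± 0.60 (adjusted p = 0.0195) in the authors' deposited table. Their deposited means were only 14.5, 37.5 and 35.0 normalized counts, and the 3 calls were lost after subtracting the median of like-abundance genes (1.28, adjusted p = 0.0604; 0.83, adjusted p = 0.165; 0.65, adjusted p = 0.365). H2-Q4, a more abundant Q gene with a mean of 845, was at 1.39 ± 0.43 with the status Outlier in the authors' deposited table of 3-month males. In 3-week males H2-Q10 was at 0.87 ± 0.40, also with the status Outlier, in the authors' deposited table, and its mean was 116 there against 36.7 in females. H2-M3, H2-Q2, H2-T10 and H2-Q4 were not called at 3 weeks, with deposited values from -0.45 to 0.30. H2-Q5 and H2-K2 were not called in any of the 3 tables.

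H2-Ke2 and H2-Ke6 carry the H2- prefix for their place in the region but encode no MHC molecule: Pfdn6, a chaperone subunit, and Hsd17b8, a mitochondrial fatty acid synthesis enzyme. H2-Ke6 was the sole member called lower at 3 months, at -0.73 ± 0.14 (adjusted p = 1.1e-06) in the authors' deposited table. Scaling by totals ended that call (-0.23, adjusted p = 0.135). At 3 weeks the authors' deposited tables put it at -0.50 ± 0.20 for males (adjusted p = 0.0711) and -0.38 ± 0.10 for females (adjusted p = 8.81e-04). H2-Ke2 was called lower in females (-0.36 ± 0.14, adjusted p = 0.0453), at -0.34 ± 0.18 (adjusted p = 0.220) in 3-week males and at 0.18 ± 0.15 (adjusted p = 0.285) in 3-month males in the authors' deposited tables. The female call of H2-Ke2 was lost with scaling by totals (-0.21, adjusted p = 0.264), as was that of H2-Ke6 (-0.23, adjusted p = 0.0607).

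Members with the status Low have no adjusted p. H2-M2, a class I relative, was at 1.37 ± 0.42, 1.00 ± 0.41 and 3.70 ± 0.69 in the authors' deposited tables of 3-week males, 3-week females and 3-month males, with means of 7.80, 6.25 and 8.18 normalized counts. H2-Eb2, a class II beta gene, was at 0.41 ± 0.36, 1.26 ± 0.41 and 2.15 ± 0.71 in the authors' deposited tables, with means of 3.83, 8.19 and 9.68. Both were positive in each table at these low means. The means of H2-L, H2-Q1, H2-Bl, H2-M5, H2-M9, H2-T3 and H2-M10.5 were below 8 normalized counts throughout.

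Whether the genotype difference changed with age was tested for each gene from the 2 deposited fold changes of males and their SEs, adjusted over 12355 genes tested in both tables. The 3-month value was called above the 3-week value for 16 of 24 members and called below it for 0. Of all genes, 16.8% were called above and 10.9% below, 27.7% in all. H2-Ke6 had a negative difference that was not called, at -0.23 ± 0.25 (adjusted p = 0.519). Among class II genes, H2-Eb1 differed by 2.29 ± 0.26 (adjusted p = 3.95e-16), H2-Oa by 2.27 ± 0.61 (adjusted p = 0.00161), H2-Aa by 2.27 ± 0.26 (adjusted p = 3.23e-16), H2-Ab1 by 2.03 ± 0.26 (adjusted p = 1.08e-12) and Cd74 by 1.96 ± 0.29 (adjusted p = 1.2e-09). H2-Q2 and Psmb9 differed by 1.98 each, with SE 0.58 and 0.49 (adjusted p = 0.00456 and 5.61e-04). Of these, H2-Q2 lost its 3-month call after subtraction of the median of like-abundance genes. H2-DMb2 differed by 0.81 ± 0.52 (adjusted p = 0.246) and Ciita by 0.95 ± 0.44 (adjusted p = 0.0940), neither of them called. So H2-DMb2 was the class II loading gene whose difference between ages was not called. The tables were normalized separately and their largest SEs were 0.44 and 1.10, so fold changes may have been moderated to different degrees, and age cannot be told apart from other differences between the 2 sets of libraries.

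The same test between the sexes at 3 weeks called 0 of 30 members, and 0% of all 13737 genes above and below together (0% above, 0% below), with DESeq2's deposited fold changes and SEs. The smallest adjusted p of a member was 1.00. H2-K1 (-0.51, unadjusted p = 0.0319) and H2-DMb2 (-1.15, unadjusted p = 0.0440) were the members under an unadjusted p of 0.05. With 237 of all genes (1.73%) under that p, the test made few calls, and a missing call does not show that the sexes acted alike.

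The SE of a fold change is a modelled value that depends only in part on how far libraries of a genotype lay apart. That distance was not seen directly here. At 3 months the SE was low for the class II chains and Cd74. Set against the median SE of 201 genes of like abundance, the SE was 0.308 for H2-Eb1, 0.484 for H2-Ab1, 0.485 for Cd74 and 0.576 for H2-Aa. It was 1.09 for H2-K1, 1.10 for B2m, 1.60 for H2-D1, 2.02 for H2-T23 and 2.71 for H2-Q4. The SEs of these class II genes were thus below, and those of these class I genes above, the median for their level; Ciita, with 1.23, was above it too. Class II loading genes lay on both sides, with 0.624 for H2-Ob, 0.753 for H2-DMa, 1.02 for H2-DMb2, 1.08 for H2-DMb1 and 1.08 for H2-Oa. So did peptide supply genes, with 0.518 for Tapbp, 1.02 for Tap2, 1.74 for Tap1, 1.78 for Psmb9 and 1.95 for Psmb8. At 3 weeks the pattern was not seen: the median ratio of class II chains was 1.31 in males and 1.15 in females, and that of classical class I was 1.05 and 0.953. At 3 months the median SE for a given abundance was 0.171 at a mean of 1003 and 0.289 at a mean of 10722. A low ratio at a high mean therefore does not by itself show that libraries lay close together.

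The status Outlier was given at 3 months to 5 members, H2-K1, H2-D1, H2-Q4, H2-T23 and Psmb8, all with positive fold changes and all in class I or its peptide supply, and to 10.6% of all genes with the status OK or Outlier. Among kidney tubule and podocyte markers it was given to 7 of 10. Genes of the interferon response list had a median SE ratio of 1.21, with 13 of 20 above 1. This was not particular to that list: macrophage markers had 1.19, with 9 of 12 above 1, and B cell markers 1.50. The lists of MHC regulators and of T and NK cell markers were below 1, at 0.889 and 0.896. What sets these SEs was not tested, and the differences between groups of members are a description.

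**Figure D2:**
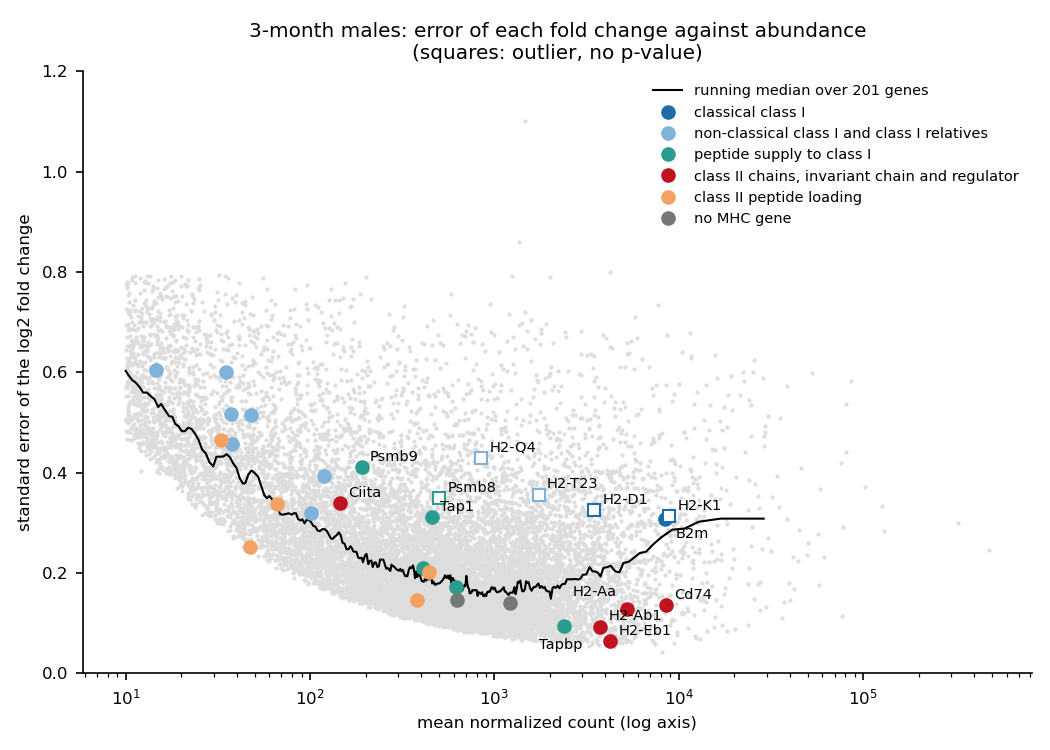
Deposited SE of the log2 fold change (vertical axis) against the mean normalized count (log axis) in 3-month males, for members by role and other genes in grey, with the running median over 201 genes of like mean as a line; squares are the status Outlier. H2-Eb1, H2-Ab1, Cd74 and H2-Aa lie below the line, and H2-Q4, H2-T23, Psmb8 and H2-D1 above it.

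Most members share 1 stretch of chromosome 17, from 33915899 to 37483552 on GRCm38 (3.57 Mb). The other genes there offer a comparison of place. At 3 months, 16 of 21 tested members in the stretch were called higher and 1 lower, while of 85 other tested genes 31 were called higher and 15 lower. The medians in the authors' deposited table were 1.73 for members and 0.20 for the others. In 3-week males, 4 of 26 members were called higher and 1 lower, and 7 of 92 others higher and 5 lower. In 3-week females, 3 of 27 members were called higher and 3 lower, and 5 of 94 others higher and 8 lower. Over all tested genes, 29.8% were called higher and 27.8% lower at 3 months. These shares were 8.81% and 8.52% in 3-week males, and 8.29% and 10.4% in 3-week females. The difference between members and neighbours was not tested.

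**Figure D3:**
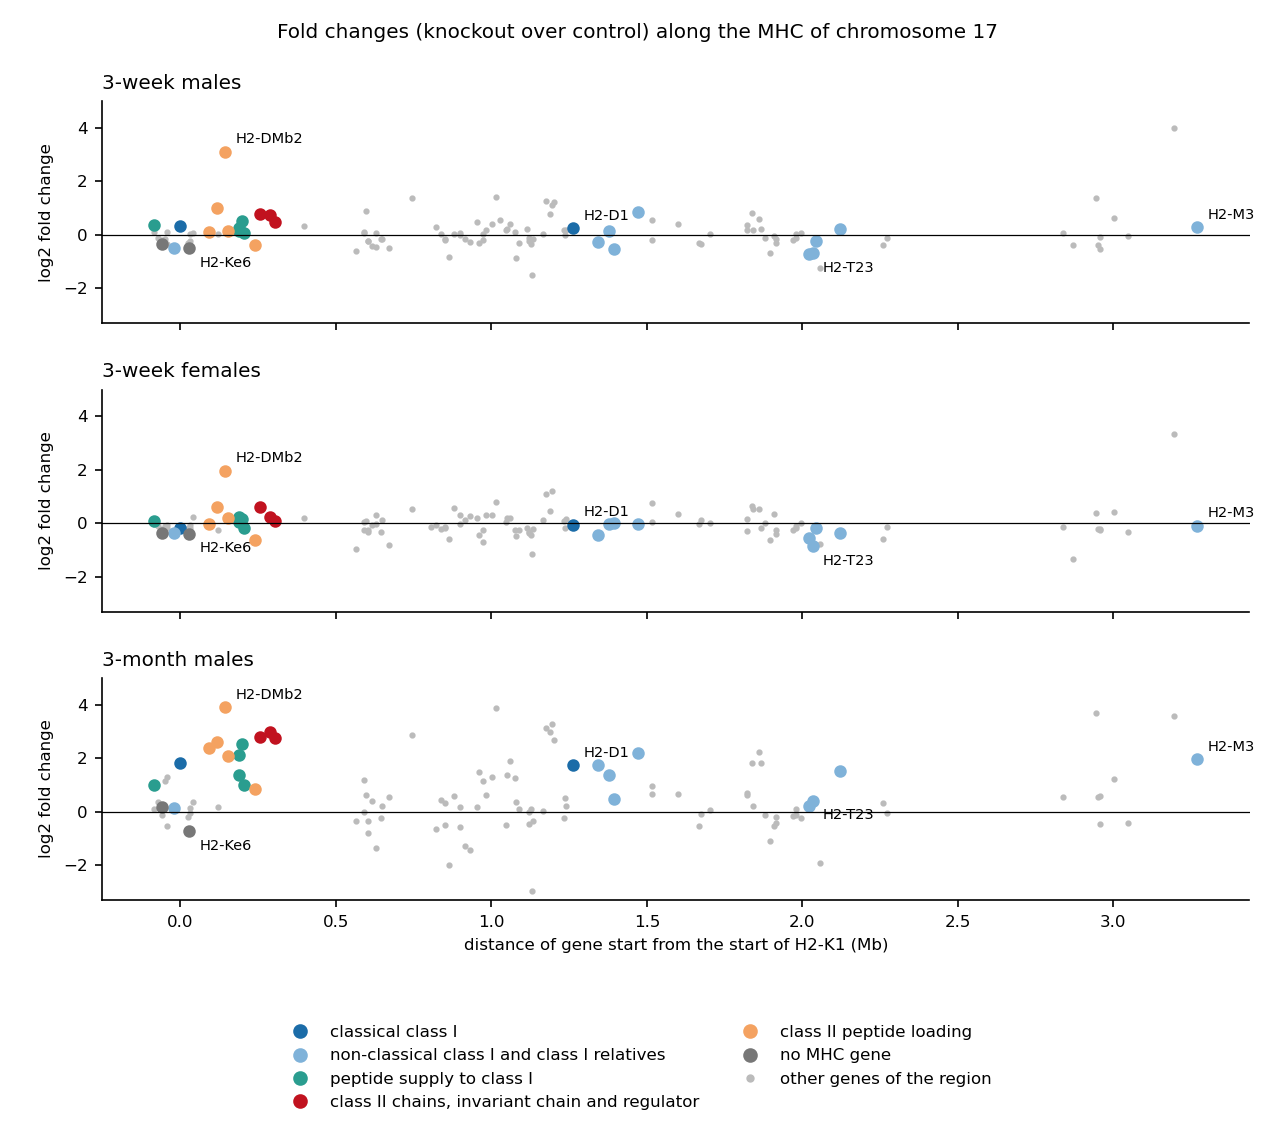
Deposited log2 fold change (vertical axis) of genes by distance of their start from that of H2-K1 in Mb, in the 3 tables, with members coloured by role and other genes in grey. The class II genes lie together beside H2-K1 and are high at 3 months, H2-DMb2 is high in all 3 tables, and H2-Ke6 lies below 0.

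Other genes of the pathway were taken as lists. Of 24 regulators of MHC genes, 14 were called higher and 2 lower at 3 months, 5 higher and 1 lower in 3-week males, and 5 higher and 1 lower in 3-week females. Over all tested genes the shares were 29.8% higher and 27.8% lower at 3 months, 8.81% and 8.52% in 3-week males, and 8.29% and 10.4% in 3-week females, and they serve as the background of each list below. Of the 24 regulators, Spi1 had the smallest p at 3 months, at 3.21 ± 0.23 (adjusted p = 3.53e-43) in the authors' deposited table. At 3 weeks Spi1 was at 0.87 ± 0.29 (adjusted p = 0.0216) in males and 0.60 ± 0.26 (adjusted p = 0.0875) in females. Nlrc5, the class I counterpart of Ciita, was called higher in 3-week males (0.86 ± 0.31, adjusted p = 0.0334) and 3-month males (1.50 ± 0.29, adjusted p = 1.08e-06) in the authors' deposited tables, and was at 0.33 ± 0.23 (adjusted p = 0.350) in females. Irf1, an interferon-induced activator of class I genes, was called higher in all 3 of the authors' deposited tables, at 0.63 ± 0.18, 0.43 ± 0.12 and 2.07 ± 0.21. The interferon-gamma receptor chain Ifngr2 was also called higher in each, at 0.49 ± 0.15, 0.58 ± 0.13 and 1.25 ± 0.18 in the authors' deposited tables. Nfyc, a subunit of the Y box factor NF-Y, was called lower in each, at -0.45 ± 0.17, -0.46 ± 0.14 and -0.68 ± 0.13 in the authors' deposited tables. The other NF-Y subunits of the list did not follow it. Nfya was at -0.19, 0.50 (adjusted p = 0.0435, called higher) and 0.05 in the authors' deposited tables. Nfyb was at -0.04, 0.01 and 0.04 there and was not called. Rfx5 and Rfxap, subunits of the RFX complex of class II promoters, were not called in any table, and Rfxank was called lower at 3 months (-0.39 ± 0.12, adjusted p = 0.00257) in the authors' deposited table.

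Interferon response genes were called higher in 16 of 20 and lower in 0 at 3 months, with a median of 1.37. At 3 weeks 2 of 20 were called higher in males, and 1 of 20 higher and 2 lower in females. Ifit3 was at 2.09 ± 0.18 and Gbp2 at 2.04 ± 0.38 in the authors' deposited table of 3-month males. At 3 weeks Cxcl10 was called higher in both sexes, at 1.63 ± 0.36 and 2.42 ± 0.26 in the authors' deposited tables, while Irf7 was called lower in females (-0.90 ± 0.17, adjusted p = 3.52e-06). Of 14 class II processing genes, 5 of 12 tested were called higher and 3 lower at 3 months, against 29.8% and 27.8% of all tested genes. Ctss, the protease that trims the invariant chain, was called higher in all 3 of the authors' deposited tables, at 1.80 ± 0.21, 1.04 ± 0.27 and 4.11 ± 0.25. The costimulatory ligand Cd86 was at 1.38 ± 0.27, 0.62 ± 0.26 (adjusted p = 0.0807) and 2.74 ± 0.35 in the authors' deposited tables. Ctsl and Lgmn, proteases that tubule cells also make, were called lower at 3 months (-0.36 ± 0.14 and -0.91 ± 0.23) in the authors' deposited table. Among 16 further class I loading genes, 4 were called higher and 4 lower at 3 months, near the background, and 0 were called in 3-week males. Of the 15 tested in 3-week females, 1 was called higher and 1 lower. These were Erap1 (0.60 ± 0.15, adjusted p = 0.00101) and Psmb6 (-0.29 ± 0.09, adjusted p = 0.00914) in the authors' deposited table.

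Markers of other cell types were taken as lists too. All 12 macrophage markers were called higher at 3 months (median 3.78) and 11 of 12 at 3 weeks in males (median 1.49) and in females (median 1.13). Their summed implied level went from 2161 normalized counts in control to 29736 in knockout at 3 months, from 10200 to 24005 in 3-week males and from 8002 to 14193 in 3-week females. In 3-week females 11 macrophage markers were called and H2-Aa, H2-Eb1 and Cd74 were not, a difference that was not tested. Dendritic cell markers were called higher in 8 of 9 tested at 3 months, 4 of 10 in 3-week males and 1 of 10 in 3-week females, with summed implied levels of 2917 and 10309 at 3 months, 18660 and 22446 in 3-week males, and 14634 and 15902 in 3-week females. Cd24a, which tubule cells also make, held most of these sums, with means of 5183, 18373 and 13744 normalized counts in that order in the authors' deposited tables.

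T and NK cell markers were called higher in 9 of 9 tested at 3 months, 2 of 9 in 3-week males and 1 of 8 in 3-week females. Their summed implied levels were 119 and 507 at 3 months, 468 and 915 in 3-week males, and 360 and 556 in 3-week females. Means of these markers were at most 59.0 normalized counts at 3 months. The values given here, in this and the other lists, are without subtraction of the median of like-abundance genes. For the member H2-Ob, at a mean of 47.1, that subtraction took the 3-month value from 0.86 to -0.07. B cell markers were called in 1 of 2 tested at 3 months, Cd22, and in 0 of 7 and 0 of 6 at 3 weeks, with sums of 104 and 251, 334 and 473, and 245 and 315. Ifng, which encodes interferon-gamma, had the status Low in each table. Kidney tubule and podocyte markers had summed implied levels of 823022 in control and 167056 in knockout at 3 months. Kap, with the largest mean of that list (326660) and a log2 fold change of -2.94, weighs heavily in these sums. Other markers went down less or up: Slc12a1 was at -0.71, Umod at -0.57 and Aqp2 at 2.29, all Outlier, in the authors' deposited table. Fat markers Plin1 and Fabp4 were called higher at 3 months (4.67 ± 0.50 and 3.39 ± 0.30 in the authors' deposited table) and the adrenal gene Cyp11b1 had a mean of 0.179. Of the red blood cell genes, Alas2 was called lower at 3 months (-1.01, adjusted p = 0.0223) in the authors' deposited table, and Hbb-bs had means of 33677, 35505 and 3096 with the status Outlier throughout. In 3-week females Hbb-bs and Alas2 were at -1.79 and -1.94, both Outlier, in the authors' deposited table. Hba-a1 was listed at 0 in every table. The part of these cells in the fold changes of the members was not tested.

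**Figure D4:**
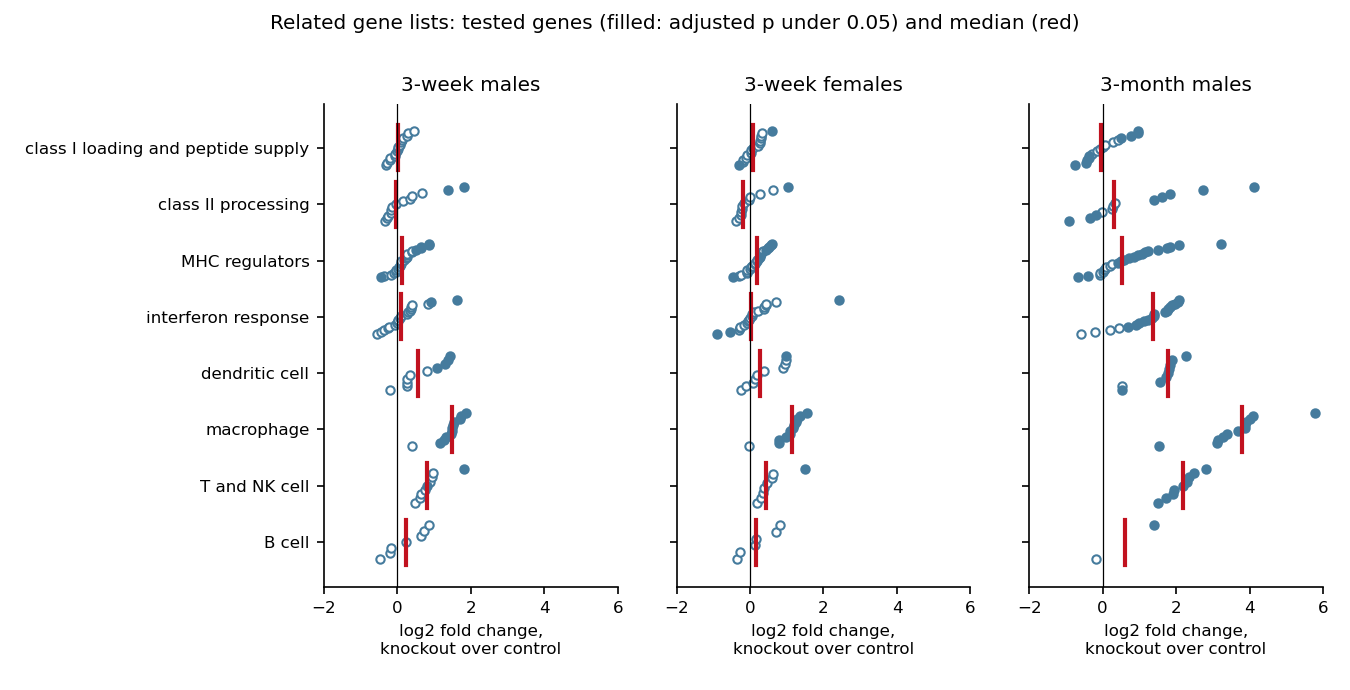
Deposited log2 fold changes (knockout over control, horizontal axis) of the tested genes of 8 related lists in the 3 tables; each point is a gene, filled where called, and red bars mark medians. Macrophage markers lie farthest to the right at 3 months (median 3.78), and the lists of class I loading and class II processing genes lie on both sides of 0.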

How the data were processed

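Polyadenylated kidney RNA was made into libraries with a stranded kit, per the labels' protocols. The submitters' processing notes name mm10, STAR, HOMER and DESeq2 without versions. The authors deposited 3 tables of their own comparisons. Per the file headers, each holds a mean normalized count (a signal), a log2 fold change with its SE, the Wald statistic as a score, a p-value, an adjusted p-value and a status. All deposited p-values equalled the 2-sided Wald p within 1%, and p-values were adjusted over genes with status OK (14657, 14146 and 12828). The labels do not say which libraries came from separate animals, so p-values measure the spread between libraries, which may be technical.

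Groups were taken from the titles. No counts of single libraries were used, so the planned count models gave way to the authors' p-values. Differences between tables were tested as the difference of fold changes over the root of the summed squared SEs (scipy 1.17.1), 2-sided, with Benjamini-Hochberg adjustment, after a check on simulated data. Levels per genotype were implied from mean, fold change and the number of steps (pandas 2.3.3, numpy 2.4.6). Lengths and coordinates are from GENCODE M21, with 49 members matched; promoters are from RefSeq, aligned with Biopython 1.88. 27 symbols turned into dates were left out. Named genes were all members called in at least 1 table, the defining members of each role and some genes of the other lists. For the other lists the plan was up to 4 genes with the smallest p, which was not followed throughout. Some genes were named for their role after their values were seen. The 11 other lists cover class I and class II processing, class I relatives, regulators, interferon response and cell markers; Ighm and Trbc2 were unmatched. Members and lists were chosen with earlier results of these data known. Alternatives tried were scaling by totals, centring on all genes or on genes of like abundance, other filters, thresholds and adjustments, and leaving out gene families.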

Additional observations from a re-analysis of the deposited data

Results flagged for a closer look

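For 16 members the genotype difference in males was larger at 3 months than at 3 weeks by the test of the difference itself (2-sided, adjusted over 12355 genes), where 16.8% of all genes passed in that direction. In log2 units (± SE), the class II genes differed by 2.29 ± 0.26 for H2-Eb1, 2.27 ± 0.61 for H2-Oa, 2.27 ± 0.26 for H2-Aa, 2.03 ± 0.26 for H2-Ab1, 1.96 ± 0.29 for Cd74, 1.95 ± 0.29 for H2-DMb1, 1.61 ± 0.32 for H2-DMa and 1.24 ± 0.45 for H2-Ob. The class I genes differed by 1.98 ± 0.58 for H2-Q2, 1.68 ± 0.48 for H2-M3 and 0.95 ± 0.34 for B2m. Genes of peptide supply differed by 1.98 ± 0.49 for Psmb9, 1.76 ± 0.34 for Psmb10, 1.13 ± 0.39 for Tap1, 0.93 ± 0.28 for Tap2 and 0.63 ± 0.25 for Tapbp. The adjusted p ran from 3.23e-16 (H2-Aa) to 0.0416 (Tapbp). The 3-month calls of H2-Ob and H2-Q2 were lost after subtracting the median of like-abundance genes, so their differences between ages are less certain. The members without a p-value at 3 months, H2-K1, H2-D1, H2-Q4, H2-T23 and Psmb8, could not enter this test.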

How the results depend on the processing

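Of the counts and medians over members, 73 alternative values kept their reading and 12 moved. In 3-week males, Bonferroni adjustment left 1 member called higher and 0 lower, and leaving out the H2-Q, H2-T and H2-M genes left 0 lower. In 3-week females, scaling by totals gave 5 higher and 1 lower, Bonferroni adjustment 1 higher and 0 lower, and leaving out H2-Ke2 and H2-Ke6 1 lower. In 3-month males, scaling by totals and leaving out H2-Ke2 and H2-Ke6 each gave 0 lower, and the median was 2.23 with scaling by totals and 1.34 against genes of like abundance. For single members, 209 values kept their call, 7 gained and 8 lost it. In 1 more, H2-Ob at 3 months, the call was lost and the sign turned. It was at -0.070 (adjusted p = 0.837) against genes of like abundance, and the cause was not tested. Another 8 values, none of them called, changed sign, all at 3 weeks. The differences between tables kept their counts within 1.5 times.

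No paired analysis was possible because the tables hold comparisons of groups and the labels number libraries without repeats. Leaving out single libraries, edgeR, other size factors and filters on counts were not run, as they need values per library. Depth limits members with means under 10, which have no adjusted p.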

Other observations

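Class I relatives outside the H2- symbols went different ways. Fcgrt, the neonatal Fc receptor that pairs with beta-2 microglobulin and recovers IgG and albumin in tubule cells, was called lower in all 3 of the authors' deposited tables, at -0.61 ± 0.21 (adjusted p = 0.0318) in 3-week males, -0.73 ± 0.21 (adjusted p = 0.00624) in 3-week females and -1.37 ± 0.15 (adjusted p = 2.1e-19) in 3-month males. Azgp1, a soluble class I relative, was called lower at 3 months (-3.39 ± 0.25, adjusted p = 3.08e-41) in the authors' deposited table. Mr1, which shows vitamin metabolites to T cells, and Cd1d1, which shows lipids, were called higher at 3 months (1.89 ± 0.33 and 1.65 ± 0.32) in the authors' deposited table. Mr1 was also called higher in 3-week males (0.71 ± 0.19, adjusted p = 0.00199) in the authors' deposited table. Hfe, of the same list, was not called in any of the authors' deposited tables, at 0.02, -0.18 and 0.06. Of the 5 tested genes of this list at 3 months, 2 were called higher and 2 lower, against 29.8% and 27.8% of all tested genes. So B2m rose at 3 months together with some of these relatives, while Fcgrt fell.

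Of the genes of the MHC stretch that are no members, Ubd stood out after the values were seen. It encodes a ubiquitin-like modifier that targets proteins to the proteasome, and was at 3.98 ± 0.33 with the status Outlier in 3-week males, 3.34 ± 0.31 (adjusted p = 2.64e-25) in 3-week females and 3.58 ± 0.51 (adjusted p = 1.81e-11) in 3-month males in the authors' deposited tables.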
